A study of Sus scrofa with 6 samples.

Results

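The 301 stretches of genome described here hold transfer RNA (tRNA) genes for glutamate, glycine, aspartate, histidine, lysine and valine, out of 37784 distinct stretches listed over all libraries. Small RNA was sequenced from the duodenum of 5 Sutai piglets aged 28 days, and each list gives stretches of genome, nearly all of 1 length, with the count of the cluster of sequences found there. The groups differ at the M307 site of FUT1, whose product, a fucosyltransferase, helps to build the gut sugar to which F18 fimbriae bind: 2 piglets were AA (524 and 2129), the genotype resistant to E. coli F18, and 3 were GG (512, 2134 and 2383), the sensitive genotype. No treatment is given for either genotype, and all animals shared housing. Piglets 524 and 512 are full sibs, as are 2129 and 2134, the AA sib of piglet 2383 failed in sequencing, and piglet 512 was sequenced in 2 runs, summed here. The labelled tissue was not checked against its defining markers, since no sequences of them were used here.

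A stretch outside the mitochondrial genome was a member when either strand held a cloverleaf, the fold of a tRNA, with an acceptor stem of 7 base pairs of which at least 6 paired, a D stem of 4 (at least 3), an anticodon stem and a T stem of 5 (at least 4 each), a variable loop of 3 to 24 bases, and an anticodon for one of the 6 amino acids. The best cloverleaf of a stretch was kept, and it had to reach past base 95. By themselves these stems also fitted many stretches with no other sign of a tRNA, so a score was added, the number of paired bases (21 at most) plus 9 conserved bases, with a floor of 27 of 30. Just inside the floor, at 27, lay 24 stretches with a highest count of 32, and just outside it, at 26, lay 22 stretches with a highest count of 27. Further outside, some stretches with these anticodons had higher counts than any member, up to 418 at score 20 and 370 at score 22. Full scores of 30 were reached by 183 stretches, with counts up to 188. The 301 stretches belong to 133 genes with 77 distinct tRNA sequences. Of these genes 92 had every pair of the acceptor, anticodon and T stems in place and are called intact, and 41 are called imperfect. In 38 of the imperfect genes the first 24 bases differed from those of an intact glutamate tRNA gene at no more than 4 places (median 1), whatever their anticodon.

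Transfer RNAs carry amino acids to the ribosome and pair with codons through the anticodon. Their precursors are trimmed at the 5′ end by RNase P and at the 3′ end by RNase Z, and an enzyme then adds the letters CCA, which the genome does not encode. Under stress, nucleases such as angiogenin cut mature tRNAs in the anticodon loop, which leaves a 5′ and a 3′ piece (tiRNAs), and the tRNAs for the 6 amino acids here are among their best known sources. For 11 anticodons past the filter on low counts the sequence with the highest mean scaled count is shown, because the places of the fragments are read along it, from acceptor stem to acceptor stem, with the anticodon in capitals (DNA letters of the deposited stretches).
tRNA-Glu-TTC: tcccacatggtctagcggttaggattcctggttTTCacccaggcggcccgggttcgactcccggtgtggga
tRNA-Gly-GCC: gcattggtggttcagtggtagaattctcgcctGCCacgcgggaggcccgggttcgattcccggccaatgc
tRNA-Gly-CCC: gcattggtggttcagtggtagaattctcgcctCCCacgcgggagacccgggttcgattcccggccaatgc
tRNA-Gly-TCC: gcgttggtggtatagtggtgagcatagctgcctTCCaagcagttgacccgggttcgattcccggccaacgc
tRNA-Asp-GTC: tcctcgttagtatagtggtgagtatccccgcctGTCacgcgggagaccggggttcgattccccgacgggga
tRNA-His-GTG: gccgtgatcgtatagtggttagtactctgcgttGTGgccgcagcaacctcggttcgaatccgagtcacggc
tRNA-Lys-CTT: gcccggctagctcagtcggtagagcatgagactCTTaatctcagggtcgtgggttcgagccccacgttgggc
tRNA-Lys-TTT: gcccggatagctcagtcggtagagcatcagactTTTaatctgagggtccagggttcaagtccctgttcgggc
tRNA-Val-AAC: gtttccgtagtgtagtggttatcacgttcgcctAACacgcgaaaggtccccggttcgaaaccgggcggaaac
tRNA-Val-CAC: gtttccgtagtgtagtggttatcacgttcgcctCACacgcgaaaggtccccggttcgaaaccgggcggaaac
tRNA-Val-TAC: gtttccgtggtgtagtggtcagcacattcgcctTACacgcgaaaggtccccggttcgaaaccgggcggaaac

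The leading copy of tRNA-Glu-TTC lies at chr1:10249770-10249840 on the minus strand. Those of glycine lie at chr7:22918479-22918548 on the minus strand, chr4:103342122-103342191 on the minus strand and chr4:103401563-103401633 on the minus strand. Aspartate is represented by chr7:22776471-22776541 on the minus strand and histidine by chr1:217289836-217289906 on the minus strand. The lysine copies lie at chr3:35043928-35043999 on the minus strand and chr2:9818573-9818644 on the minus strand, and the valine copies at chr4:103306934-103307005 on the minus strand, chr4:103376500-103376571 on the minus strand and chr7:22540845-22540916 on the minus strand. The genome build of these coordinates is not given in the sources used here, so no annotation was laid over them. The leading sequences of tRNA-Gly-CCC and tRNA-Gly-GCC are 70 bases long and differ only by C33G in the anticodon and A45G, counted from the first base of the tRNA with the tRNA-Gly-CCC base first.

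Intact genes were unevenly spread. Chromosome 4 held 27 of the 92, all starting at 103287840 or later and of every isotype but aspartate. Chromosome 7 held 22, of which 17 lay between 22026331 and 22918548 (aspartate, glycine, lysine and valine). Chromosome 3 followed with 11, of which 8 lay between 35029247 and 35631243 (glycine and lysine), and 4 glycine genes made up a group between 9982530 and 10073131 on chromosome 6. By anticodon, 16 intact genes were tRNA-Lys-TTT, 12 tRNA-Glu-TTC, 10 each tRNA-His-GTG and tRNA-Lys-CTT, 9 tRNA-Val-CAC, 8 each tRNA-Asp-GTC and tRNA-Gly-GCC, 7 tRNA-Val-AAC, 5 tRNA-Gly-CCC, 4 tRNA-Glu-CTC, 2 tRNA-Val-TAC and 1 tRNA-Gly-TCC. An anticodon ATC, which reads as aspartate, was found only in 2 imperfect genes, both with the first 24 bases of a glutamate tRNA.

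Total counts per library ran from 42354 (piglet 2383) to 192861 (piglet 2134), and every list stopped at a lowest count of 5. A list held between 100 and 130 of the member stretches. The lists do not say if they count reads or different sequences. Copies of 1 tRNA shared their counts: in 113 of 116 comparisons of same-strand copies of an identical tRNA sequence within a list, the highest count was within 1.1 times the lowest. Single genes among copies therefore cannot be told apart. Copies of an anticodon can also differ in sequence, so the copy with the highest count can change between lists and need not be the leading one. The highest count of any copy of an anticodon was used as the count of that tRNA. Here and below, scaled count means that count divided by the piglet's size factor, 0.714 and 0.969 for AA piglets 524 and 2129, and 1.66, 1.06 and 0.603 for GG piglets 512, 2134 and 2383.

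Every one of the 12 tRNAs tested had a lower mean log2 scaled count in GG than in AA, by a median of -0.33 on the log2(scaled count + 1) scale, and none passed the test. In limma over the whole table of 2559 tRNAs and other regions, 0 features were called at an adjusted p under 0.05 (percent called 0), and 233 had an unadjusted p under 0.05. The smallest adjusted p among the 12 was 0.517. Across the whole table the median difference was 0.30 and 37.0% of features lay below 0, so the 12 lay below a table that leaned the other way. The tRNAs of the other isotypes lay there too: 24 of 29 were below 0, with a median of -0.30. Before adjustment 1 of the 12 had p under 0.05, tRNA-Glu-CTC, against 1.8% of all features with such a p and a lower value in GG and 7.31% with such a p and a higher one. Each replicate is 1 piglet, so the test measures the difference against the spread between piglets. In bulk tissue, fewer cells of a type and less RNA per cell cannot be told apart.

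The difference of tRNA-Glu-CTC was the largest of the 12, while that of tRNA-Glu-TTC was smaller than those of 7 others. The scaled count of tRNA-Glu-CTC, which reads the codon GAG, was 127 in piglet 524 and 138 in piglet 2129 (AA), and 79.1, 82.2 and 59.7 in piglets 512, 2134 and 2383 (GG). All 3 GG piglets lay below both AA piglets, at 133 ± 7.66 (SD, n = 2 AA piglets) and 73.7 ± 12.2 (SD, n = 3 GG piglets), a log2 difference of -0.85 (SE 0.30, adjusted p = 0.517). Its difference was -0.68 in the first sib pair (512 minus 524) and -0.74 in the other (2134 minus 2129). For tRNA-Glu-TTC, which reads GAA, the scaled count stood at 120.5 and 107 in AA piglets 524 and 2129, and at 80.9, 95.5 and 99.6 in GG piglets 512, 2134 and 2383. GG was again below AA without overlap, but closer, with a log2 difference of -0.31 (SE 0.28, adjusted p = 0.645).

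Among the glycine tRNAs, tRNA-Gly-GCC, a much studied source of tiRNAs, reached 214 (524) and 185 (2129) in AA against 185 (512), 128 (2134) and 143 (2383) in GG. The 2 nearest piglets of the groups, 2129 and 512, were almost level (185 each to 3 digits), so the groups touch, and the log2 difference was -0.41 (SE 0.31, adjusted p = 0.606). Its near twin tRNA-Gly-CCC stood at 140.1 and 136 in AA piglets 524 and 2129, and at 119, 82.2 and 94.6 in GG piglets 512, 2134 and 2383. Piglet 2134 was the lowest for both of these glycine tRNAs, and the tRNA-Gly-CCC difference was -0.50 (SE 0.30, adjusted p = 0.517). The rarer tRNA-Gly-TCC was 37.8 in piglet 524 and 39.2 in piglet 2129 (AA), and 33.2, 35.9 and 23.2 in piglets 512, 2134 and 2383 (GG), with piglet 2383 set off below the rest and a difference of -0.34 (SE 0.33, adjusted p = 0.665).

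The highest mean scaled count of all belonged to tRNA-His-GTG, which reached 210.1 (524) and 194 (2129) in AA against 173 (512), 172 (2134) and 139 (2383) in GG. Here the AA piglets were highest and piglet 2383 lowest, with means of 202 ± 11.4 (SD, n = 2 AA piglets) and 161 ± 19.0 (SD, n = 3 GG piglets) and a log2 difference of -0.33 (SE 0.29, adjusted p = 0.639). The single aspartate tRNA past the filter, tRNA-Asp-GTC, was 78.4 in piglet 524 and 107 in piglet 2129 (AA), and 76.0, 86.0 and 66.4 in piglets 512, 2134 and 2383 (GG). Its AA piglets lay on either side of GG piglet 2134, so the groups overlapped, with a difference of -0.27 (SE 0.31, adjusted p = 0.693). The 2 imperfect genes with anticodon ATC, which begin like a glutamate tRNA, were listed in piglet 2129 alone, with a count of 5, and were not tested.

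Lysine has 2 tRNAs, and tRNA-Lys-CTT, the reader of AAG, stood at 172 and 185 in AA piglets 524 and 2129, and at 154, 178 and 146 in GG piglets 512, 2134 and 2383. Piglet 2134 was above AA piglet 524, and the difference was -0.17 (SE 0.29, adjusted p = 0.773). In piglets 512 and 2134 the counts came from another sequence, at chr3:35035140-35035211, with 126 and 129 in the runs of 512 and 188 in 2134. The leading sequence had 125, 125 and 182 there and 123 in piglet 524. On that sequence alone piglets 2134 and 524 would be almost level after scaling, with piglet 2134 barely the lower. For tRNA-Lys-TTT, the reader of AAA, the scaled count was 151 in piglet 524 and 169 in piglet 2129 (AA), and 129.8, 130.5 and 144 in piglets 512, 2134 and 2383 (GG). All GG values were below the AA values there, piglet 2383 by little, with a difference of -0.25 (SE 0.28, adjusted p = 0.693). Of the valine tRNAs, tRNA-Val-CAC reached 111 (524) and 102 (2129) in AA against 89.3 (512), 100.2 (2134) and 66.4 (2383) in GG, and its difference was -0.34 (SE 0.31, adjusted p = 0.649). The scaled count of tRNA-Val-AAC stood at 79.8 and 102 in AA piglets 524 and 2129, and at 88.1, 92.6 and 68.0 in GG piglets 512, 2134 and 2383. That was the smallest difference of the 12, -0.13 (SE 0.31, adjusted p = 0.831); AA piglet 524 lay below 2 GG piglets, and the fit within sib pairs put the difference at 0.00019 and the fit without AA piglet 2129 at 0.04. The least abundant of the 12, tRNA-Val-TAC, was 22.4 in piglet 524 and 28.9 in piglet 2129 (AA), and 18.7, 21.7 and 13.3 in piglets 512, 2134 and 2383 (GG), with a difference of -0.51 (SE 0.37, adjusted p = 0.59).

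By mean scaled count the order was tRNA-His-GTG (178), tRNA-Gly-GCC (171), tRNA-Lys-CTT (167), tRNA-Lys-TTT (145), tRNA-Gly-CCC (115), tRNA-Glu-TTC (100.7), tRNA-Glu-CTC (97.4), tRNA-Val-CAC (93.8), tRNA-Val-AAC (86.2), tRNA-Asp-GTC (82.8), tRNA-Gly-TCC (33.9) and tRNA-Val-TAC (21). Neighbours in this order mostly overlapped over the 5 piglets, and the clear step was from tRNA-Asp-GTC, never below 66.4, to tRNA-Gly-TCC, never above 39.2. The 2 least abundant tRNAs had 1 and 2 intact genes, yet gene number did not order the rest, since tRNA-Glu-CTC with 4 intact genes stood beside tRNA-Glu-TTC with 12. The repeat run of piglet 512 gives 1 difference between runs per tRNA, from 1 animal. As log2 of run 2 over run 1, each per total count, the 12 ran from -0.37 (tRNA-Glu-CTC) to 0.57 (tRNA-Val-TAC), with a median of -0.01 and an SD of 0.26. Of the 12 group differences, 10 were larger in size than the same tRNA's difference between the runs, and those of tRNA-Lys-TTT and tRNA-Val-TAC were not. The group differences use TMM size factors and the run differences total counts. This count therefore cannot show if the group differences exceed the error between runs. The largest run difference, that of tRNA-Val-TAC, rests on counts of 13 and 18.

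**Figure D1:**
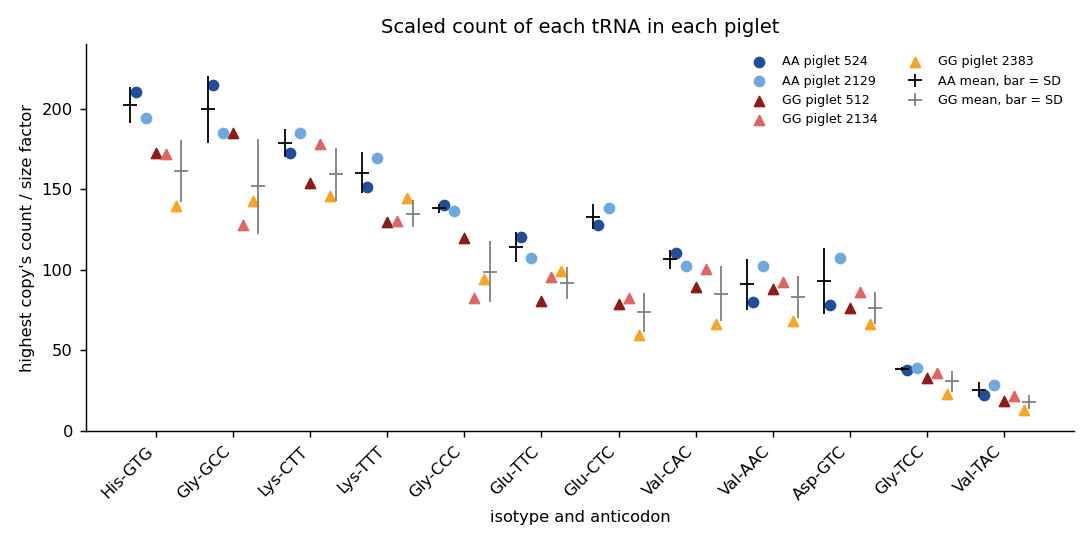
Scaled count of each of the 12 tested tRNAs (y axis: highest count of any copy divided by the size factor) in each piglet, circles for AA and triangles for GG, with group means and SD bars beside them. For tRNA-Glu-CTC the AA piglets sit at 127 and 138 and the GG piglets between 59.7 and 82.2, and for tRNA-Val-AAC the groups interleave.

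Whether the groups stood apart hung on the scaling. With the TMM size factors every GG piglet lay below every AA piglet for 9 of the 12 tRNAs, against 10.6% of all features tested, and in none did every GG piglet lie above, against 23.4%. Among the tRNAs of the other isotypes, every GG piglet lay below for 10 of 29 and above for 0. With total counts alone as the scale the 9 became 2, against 8.44% of all features, and with median-of-ratios size factors 7, against 10.3%. Under these 2 scalings every GG piglet lay above for 0 of the 12, against 23.6% and 22.5% of all features. All 12 differences stayed below 0 under each of the 3 scalings, whose median over all features was 0.30, 0.17 and 0.30. The TMM factor raised the scale of piglet 2383 and of piglet 524 most (1.54 and 1.37) and lowered that of piglet 2134 most (0.594), the libraries with the 2 lowest totals and the highest total.

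The same values gene by gene showed where the lowest p stood. Of 133 merged regions that hold a member, 98 passed the filter, and in limma over all 2771 regions tested 0 were called (percent called 0), with 57 lower and 190 higher in GG at an unadjusted p under 0.05. Before adjustment 7 of the 98 had p under 0.05, all lower in GG, against 2.06% of all regions with such a p and a lower value and 6.86% with such a p and a higher one. These are not 7 separate results: 4 are copies of tRNA-Glu-CTC, 1 is an imperfect gene with the same first 24 bases, and 2 are genes of tRNA-Glu-TTC. One of these last, in chr4:103287737-103287937, had listed counts of 10 and 14 in AA and of 0, 9 and 0 in GG, so it passed the filter only through AA and 2 of its GG values are filled in. The smallest p belonged to 2 plus-strand copies of tRNA-Glu-CTC and 1 gene of tRNA-Glu-TTC. One of these plus-strand copies had listed counts of 48 and 82 (AA piglets 524 and 2129) and of 63, 36 and 19 (GG piglets 512, 2134 and 2383), a log2 difference of -1.11 (SE 0.27, adjusted p = 0.52). Its twin had 45 and 80, and again 63, 36 and 19, a difference of -1.05 (SE 0.28, adjusted p = 0.52). Copies of 1 tRNA on 1 strand share their counts, so these are not independent. The tRNA-Glu-TTC gene in chr4:103347087-103347287 had 42 and 71 against 53, 31 and 10, a difference of -1.36 (SE 0.37, adjusted p = 0.52). After scaling, the GG piglets lay below the AA piglets in all 3, but these were chosen for their small p, so this is no separate result.

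Only 6 of the 98 had a difference above 0. The lowest p among them was at chr18:4004787-4004987, an imperfect glutamate copy with listed counts of 0 and 10 for the AA piglets and of 13, 9 and 6 for the GG piglets, a difference of 0.57 (SE 0.61, adjusted p = 0.69) that rests on 2 counts filled in for piglet 524. A tRNA-Val-AAC gene in chr7:22531699-22531914 followed with 34 and 41 against 76, 68 and 28, a difference of 0.20 (SE 0.29, adjusted p = 0.74). An imperfect lysine copy in chr5:31677351-31677583 had 85 and 108 against 170, 138 and 79, a difference of 0.07 (SE 0.25, adjusted p = 0.90). The median over the 98 was -0.35, and over all regions tested 0.22.

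As a share of all listed counts, the 301 stretches held 10.2% in piglet 524 (95% Wilson interval 9.99 to 10.5) and 6.51% in piglet 2129 (6.38 to 6.65), and 6.08% in piglet 512 (5.97 to 6.19), 3.64% in piglet 2134 (3.56 to 3.73) and 8.29% in piglet 2383 (8.03 to 8.55). The intervals treat all listed counts as independent, although copies of a tRNA share theirs, so they may be too narrow even for counting error. They do not cover the spread between piglets, which is far wider. GG piglet 2383 lay above AA piglet 2129, so the groups overlapped: the AA mean was 8.37% ± 2.63 (SD, n = 2) and the GG mean 6.0% ± 2.32 (SD, n = 3), a difference of -2.37 percentage points (two-sided exact permutation p = 0.4; the 10 splits allow no p below 0.1). Without AA piglet 524 the difference was -0.51 percentage points, without AA piglet 2129 -4.23 and without GG piglet 2134 -1.19. The 2 libraries with the highest shares, of piglets 524 and 2383, were those with the lowest total counts, 56334 and 42354, and the one with the lowest share, of piglet 2134, had the highest total. The part of depth in the shares was not tested.

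By isotype lysine took the most in every piglet, between 1.08% and 2.75% of all counts, and aspartate the least, between 0.202% and 0.424%. Histidine ran from 0.716% to 1.95%, glycine from 0.637% to 2.37%, glutamate from 0.50% to 1.57% and valine from 0.508% to 1.22%. All 6 had a lower mean share in GG, from -0.08 percentage points for aspartate to -0.57 for glycine, and the exact permutation p ranged from 0.3 to 0.5 (adjusted over the 6 isotypes 0.5 for each). Since the shares sum every copy, an isotype with many copies weighs more here than in the scaled counts, where only the highest copy counts. Isotypes follow the anticodon, so the aspartate, glycine and lysine shares include imperfect genes that begin like a glutamate tRNA. One of them, at chr12:50729969-50730039, held 26 of the 239 aspartate counts in piglet 524 and 18 of 172 in piglet 2383.

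**Figure D2:**
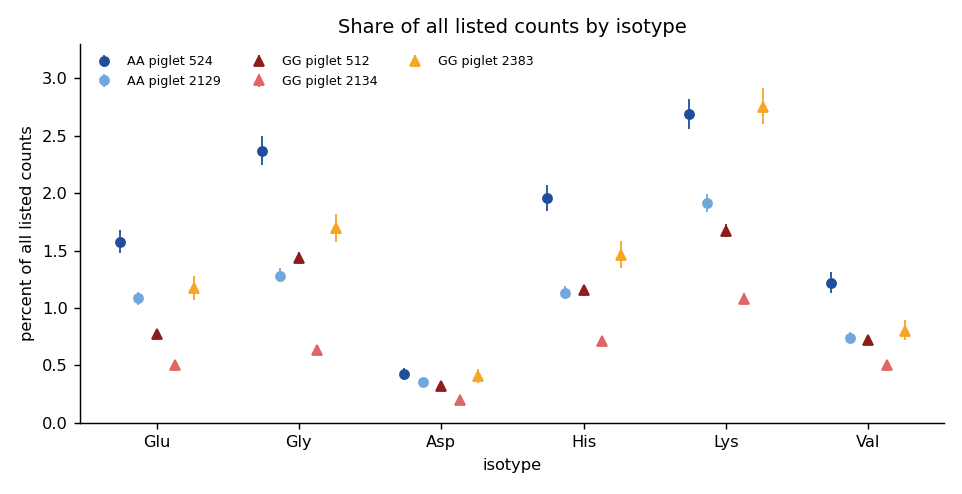
Share of all listed counts (percent, y axis) in stretches of each isotype, 1 point per piglet (circles AA, triangles GG), with 95% Wilson intervals as bars. Piglet 524 is highest for 5 isotypes and piglet 2383 for lysine (2.75%), and piglet 2134 is lowest for all 6.

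Copies of a tRNA on opposite strands of the genome had different counts. Several tRNA sequences occur letter for letter on both strands, and their copies on the minus strand had the higher count in every case: 17 of 17 sequences in piglet 524, 19 of 19 in 2129, 16 of 16 in each run of 512, 17 of 17 in 2134 and 16 of 16 in 2383. For tRNA-Gly-GCC the 7 minus-strand copies reached 153 counts in piglet 524 and 179 in piglet 2129, and 157 and 149 in the runs of piglet 512, 135 in 2134 and 86 in 2383. Its 1 plus-strand copy had 35, 60, 40, 35, 33 and 15 in the same lists. The median ratio of minus to plus ran from 2.08 in piglet 2129 to 3.84 in piglet 2383, and single ratios from 1.58 to 7.10. Nor was this particular to the 6 isotypes, since in the tRNAs of the other isotypes the minus copies were higher for every sequence too, with medians from 2 to 2.95. How the deposited clusters were built is not given in the sources used here, and the cause was not tested.

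On both strands the GG means were the lower ones. With plus-strand copies alone, a choice made after the data were seen, all 11 tRNAs that passed the filter lay below 0 with a median of -0.68, against -0.33 for the 12 on minus-strand copies alone, and 0 were called on either strand. The difference between the strands was not tested.

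**Figure D3:**
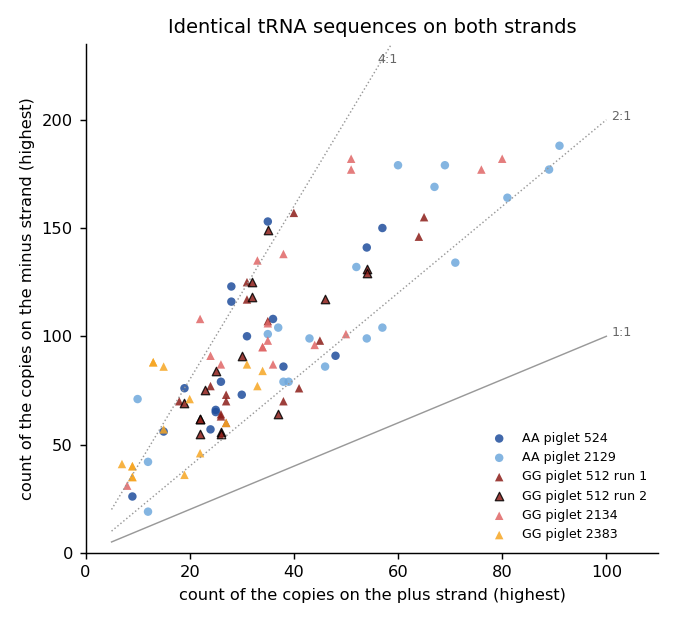
Highest count of the minus-strand copies (y axis) against the highest count of the plus-strand copies (x axis) of the same tRNA sequence, 1 point per sequence and list (circles AA, triangles GG); the solid line marks equal counts and the dotted lines ratios of 2 and 4. Every point lies above the line of equal counts.

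The middle base of a stretch is the cluster's low end on the chromosome. The lists give no strand for the fragments, which are taken here and below to be of the tRNA's own strand. For a tRNA on the plus strand the low end is then the 5′ end of the fragment that starts furthest upstream. On the minus strand the low end is the 3′ end of the fragment that runs furthest downstream. It marks how far fragments reached, not where most of them ended, and no read lengths are in the lists, so the share of tiRNAs was not measured. Places are counted from the first base of the acceptor stem. On the plus strand the low end of intact genes was at base 1 in 153 of 212 gene and list pairs, over 42 genes. The leading sequences of tRNA-Glu-TTC, tRNA-Gly-CCC, tRNA-Gly-GCC and tRNA-Lys-CTT began at base 1 in every copy and every list. In tRNA-Glu-CTC both plus-strand copies began at base 1 in piglets 2129 and 2134 and run 1 of piglet 512, and at base 5, 6 or 7 in piglet 524, run 2 of piglet 512 and piglet 2383.

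Histidine was the exception to base 1. None of its 24 plus-strand pairs began there: 16 began at base 0, 1 base before the acceptor stem, and the other 8 further upstream, from base -3 to base -16. The copies at chromosome 4 (starts 103296821 and 103328967) began at base 0 in all 6 lists. As background, tRNA-His carries an extra G before its first base, added after transcription by the enzyme THG1. In the genome the letter at base 0 was C in 9 of the 10 intact histidine genes and T in 1. The other isotypes began at base 0 in 3 of 188 pairs, 2 of valine and 1 of glutamate.

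On the minus strand the 3′-most fragments reached the place of the CCA tail. After the acceptor stem come the discriminator base and the 3 letters of CCA, so the CCA end lies 4 bases past the stem, at base 74 to 76 according to length. Over 50 intact genes and 295 gene and list pairs, 127 low ends lay within 1 base of the CCA end, 62 of them exactly on it, 66 lay 2 or more bases past it, and 102 before it. The leading tRNA-Val-CAC copies ended at base 75 or 76 in all 12 pairs, and the leading tRNA-Glu-TTC copy at base 76 in all 6. In contrast tRNA-Gly-CCC ended at base 39, in the 3′ strand of the anticodon stem, in piglets 524, 2134 and 2383, at base 47 and 72 in the runs of 512, and at base 75 in 2129. For tRNA-Gly-TCC, whose 1 intact gene is on the minus strand, the low end ran from base 59 in piglet 2383 to base 96 in piglet 524. The genome itself reads CCA at that place in 1 of the 92 intact genes, 2 letters match in 9, 1 in 50 and none in 32. The letters of the fragments themselves are not in the lists.

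**Figure D4:**
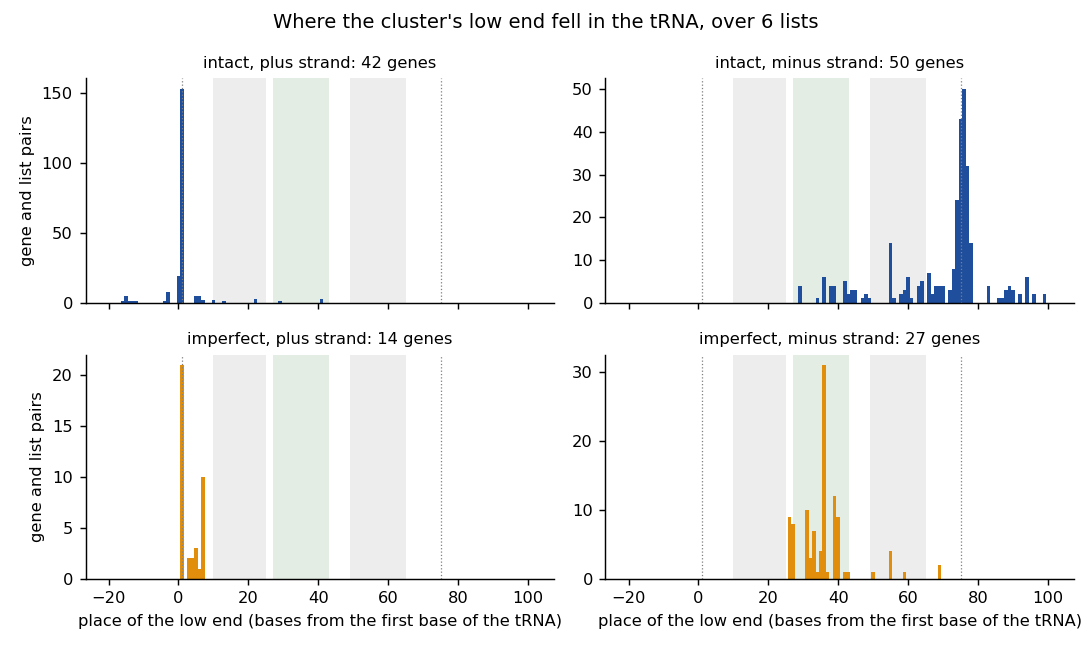
Number of gene and list pairs (y axis) by the place of the cluster's low end in bases from the first base of the tRNA (x axis), for intact and imperfect genes on each strand; shading marks the D arm, the anticodon arm (green) and the T arm of a tRNA of 71 bases, and dotted lines mark base 1 and base 75. Intact genes pile up at base 1 on the plus strand and near base 75 on the minus strand, and imperfect genes on the minus strand between base 26 and base 40.

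How far the minus-strand fragments reached differed between lists of different depth, and the part of depth in the results was not tested. The share of intact minus-strand genes whose low end lay 2 or more bases before the CCA end was 61.7% in piglet 2383 (29 of 47 genes; total count 42354), 32.0% in piglet 524 (56334), 28.6% and 44.9% in run 2 and run 1 of piglet 512 (89996 and 96244), 18% in piglet 2129 (127075) and 24% in piglet 2134 (192861). The 2 deepest lists had the lowest shares and the shallowest list the highest. The runs of piglet 512, from 1 animal and of nearly equal depth, placed the low end of 35 of 62 minus-strand genes at the same base, with a largest gap of 45 bases, against 33 of 38 on the plus strand, with a largest gap of 6. Over the 47 intact minus-strand genes found in all 6 lists the median range of places was 22 bases, and over the 32 such plus-strand genes 0. The place of a minus-strand low end in a single list is therefore a loose measurement.

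**Figure D5:**
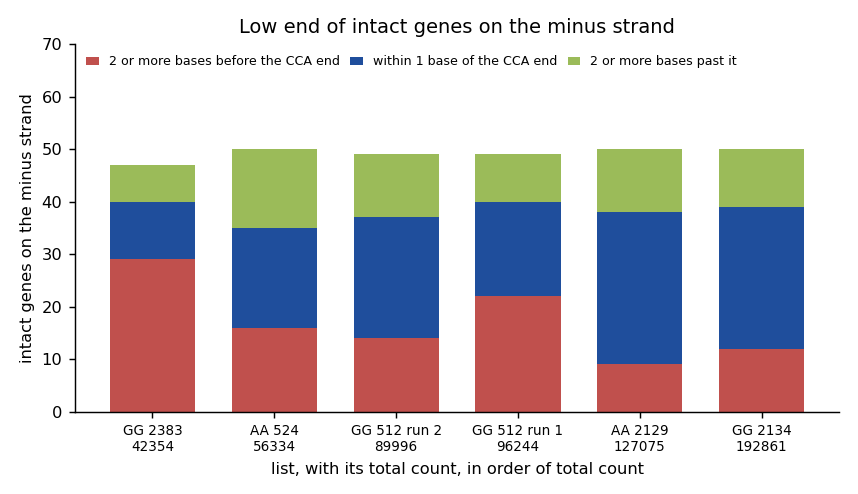
Intact genes on the minus strand in each list (y axis, number of genes), split by where the low end fell against the CCA end; lists stand in order of total count, printed below each. The shallowest list, piglet 2383, has 29 genes before the CCA end and piglet 2129 has 9.

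Set against genotype, the places did not separate the groups. The share of plus-strand counts with a low end within 3 bases of base 1 was 64.1% and 85.6% in AA piglets 524 and 2129, and 86.3%, 83.5% and 73.1% in GG piglets 512, 2134 and 2383 (difference 6.09 percentage points, exact permutation p = 0.6). On the minus strand the share at the 3′ strand of the acceptor stem or beyond was 76.1% and 91.4% in AA and 74.5%, 88.6% and 51.2% in GG (difference -12.3 points, exact permutation p = 0.4). In the anticodon arm it was 11.5% and 6.4% in AA and 13.3%, 7.8% and 13.2% in GG (difference 2.46 points, exact permutation p = 0.5), and 6 tests of place gave adjusted p values between 0.375 and 0.75. AA and GG piglets overlapped in all 3, and the smallest p the design allows is 0.1. Without AA piglet 524 the first of these differences turned to -4.63 points, without GG piglet 2383 the second was -2.21, and without AA piglet 2129 the last turned to -0.08.

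Against the tRNAs of the other isotypes no difference in place passed the adjusted test. The share of minus-strand counts with a low end in the anticodon arm was, over the 5 piglets, 10.4% ± 3.17 (SD, n = 5) against 17.8% ± 4.14 (SD, n = 5) in the other tRNAs, lower in 5 of 5 piglets, with an exact sign-flip permutation p of 0.062, the smallest that 5 piglets allow (adjusted p = 0.375 over the 6 tests of place). In the anticodon loop alone, the place of the cut that makes tiRNAs, the share was 5.59% and 3.61% in AA piglets 524 and 2129 and 4.47%, 4.28% and 6.84% in GG piglets 512, 2134 and 2383, against 8.29% to 16.3% over piglets in the other tRNAs. In 4 of 5 piglets most of those loop counts lay in imperfect genes, and in piglet 524 intact genes held 181 of 261. Of the 24 minus-strand imperfect genes that begin like a glutamate tRNA, 23 had every low end between base 26 and base 40. Past base 36, the 34 such genes of equal length on both strands differed from that tRNA at a median of 9 bases. Up to the low end the 24 on the minus strand differed from it at a median of 3 bases and at most 10, and their counts cannot be told apart from fragments of the glutamate tRNA placed with a few differences. Among intact genes the loop share was 4.19% in piglet 524, 0% in piglet 2129 (0 of 5682 counts), 1.36% in 512, 1.30% in 2134 and 0.381% in 2383. At the 3′ end the 6 isotypes had 76.4% ± 15.9 (SD, n = 5) and the others 64.5% ± 8.39 (SD, n = 5), higher in 4 of 5 piglets (exact sign-flip permutation p = 0.125). The plus-strand share near base 1 was 78.5% against 76.8%, with an exact sign-flip permutation p of 0.75.

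The flanks of intact and imperfect genes were searched for in other listed regions. Words of 16 bases from up to 40 bases after the tRNA recurred in other listed regions for 31 of the 41 imperfect and 38 of the 92 intact genes. They recurred in more than 10 other regions for 11 imperfect and 2 intact genes. For most plus-strand genes the stretch held fewer than 40 such bases, down to 14. The plus strand held 42 of the intact and 14 of the imperfect genes, so less flank was searched in the intact set and the 2 sets are not a like comparison. The highest number belonged to an intact tRNA-Asp-GTC gene on chromosome 5 (start 60233311), with 362 other regions, followed by an imperfect lysine gene on the same chromosome (start 31677448) with 201 and an intact tRNA-Lys-TTT gene on chromosome 16 (start 18056214) with 134. The counts of the imperfect lysine gene's region, 85, 108, 170, 138 and 79 in piglets 524, 2129, 512 (both runs), 2134 and 2383, were the highest of any imperfect gene. Its low end reached base 69 in piglets 2129 and 2134 and base 37 in piglet 2383. Imperfect genes together held 0.737% and 0.505% of all listed counts in AA piglets 524 and 2129, and 0.421%, 0.252% and 0.675% in GG piglets 512, 2134 and 2383, so the groups overlapped (exact permutation p = 0.4).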

How the data were processed

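Small RNA from the duodenum of 5 piglets was measured in 6 libraries. The authors deposited, per library, stretches of nearly always 1 length with a whole-number count each, recorded here as other because count and sequence lines alternate (per the file headers). The aligner, like the rule of clustering and the build, is not given in the sources used here. The members, lists and tests were chosen with earlier results of these data known.

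Cloverleaves were searched on both strands (D loop 6 to 12 bases). Each tRNA took the highest count of any copy per library, and overlapping stretches (1 base or more) were merged into regions and summed. A feature not listed in a library got 2 counts there, before the 2 runs of piglet 512 were summed, so the fill was larger in that piglet. TMM scaling trimmed 30% of ratios and 5% of abundances. To be tested, a feature needed 10 or more listed counts in 2 or more piglets. The test was limma's trended fit of log2(scaled count + 1), with limma 3.58.1 under R 4.3.3, Benjamini-Hochberg adjustment over the whole table and a threshold of 0.05. Adding 1 understates the differences of low features. Shares were tested by exact permutation over all splits of the piglets. Named were all anticodons of the 6 isotypes, the leading sequence of all but 1 (the sequence and coordinates of tRNA-Glu-CTC are not reported here), and up to 3 regions with the smallest p in each direction. The 2 histidine copies, the region with values filled in and the genes named for their flanks were chosen after their values were seen. The steps were tested on simulated data. The sib pairs come from the labels. Over 2559 features the deviations of sibs from their group means correlated at 0.04 (524 and 512) and 0.33 (2129 and 2134). For AA and GG piglets that are not sibs they correlated at -0.33 (524 and 2134), 0.29 (524 and 2383), -0.04 (2129 and 512) and -0.29 (2129 and 2383). With 2 AA piglets the deviations of 524 and 2129 mirror each other, so these values cannot show if sibs are more alike. Count models were not run. Python 3.11.15, NumPy 2.4.6, pandas 2.3.3 and SciPy 1.17.1 were used.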

Additional observations from a re-analysis of the deposited data

How the results depend on the processing

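No tRNA or region of the 6 isotypes was called under any setting that was run. All 12 tRNAs stayed below 0 in most settings; 11 did in the fit with the replicate block of sib pairs, which leaves out piglet 2383 (median -0.26, smallest adjusted p = 0.377), and over leaving out each piglet in turn the number ran from 11 to 12 and the median from -0.38 to -0.26. The exception was tRNA-Val-AAC, at 0.00019 with the replicate block, 0.042 without piglet 2129 and 0.00019 without piglet 2383. The replicate block changed no call of a member; over all features it called 30 of the table of tRNAs and regions and 79 regions, against 0, and without the filter on low counts 60 and 71 were called, none of them a member. With total counts alone 36 and 49 were called, again no member. The median of the tRNAs moved to -0.68 with plus-strand copies alone, a setting added after the data were seen. Among regions, leaving out each piglet gave 84 to 93 below 0 and a median from -0.45 to -0.28. The share of listed counts differed by -4.23 to -0.51 percentage points when each piglet was left out, with -0.51 without piglet 524, and the shares of low ends by -4.63 to 16.8 points (plus strand, near base 1), -0.082 to 5.01 (minus strand, anticodon arm) and -20.9 to -2.21 (minus strand, 3′ end), turning sign without piglets 524 and 2129 in the first and second. The causes were not tested. Where an arm kept 1 piglet, limma took its spread from the other group. The planned count models were not run, because the lists leave out low counts and are no count table. Counts under 5 are missing, so low genes and shallow libraries limit what could be seen.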
